A study of Mus musculus with 5 samples.

Results

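The genes described here carry out DNA replication and mitosis, and were taken by name from a list of 36 genes. The list holds 15 replication genes (Mcm2, Mcm3, Mcm4, Mcm5, Mcm6, Mcm7, Mcm10, Pcna, Cdc6, Cdt1, Gins1, Gins2, Rrm1, Rrm2 and Tyms), 19 mitotic genes (Top2a, Mki67, Cdk1, Plk1, Aurka, Aurkb, Bub1, Bub1b, Cdc20, Kif11, Kif20a, Kif23, Tpx2, Birc5, Cenpa, Cenpe, Nusap1, Prc1 and Ttk) and the transcription factors Mybl2 and Foxm1. All 36 were among the 18193 genes with a probe set of exactly 1 symbol, and all 36 were among the 13619 that exceeded the filter on low values on at least 1 array. Each gene is given by its brightest probe set on average, and its other probe sets served as a check.

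Mouse embryonic stem cells of 2 lines were measured on 5 Affymetrix arrays, 1 for each group. J1 cells, cultured on mouse embryonic fibroblast feeders, received either control siRNA or Tet1 siRNA and were harvested 4 days later. E14 cells, cultured without feeders, were infected with lentivirus that carried a scramble shRNA, Tet1 shRNA3387 or Tet1 shRNA2863, and were harvested once puromycin selection had run for 4 days. Line, feeders and method of depletion therefore differ together, both hairpins are compared with 1 scramble array, and no group has a replicate. The labels give no genetic change in either line. Values are on a log2 scale, and a difference is the log2 value of a depleted array minus that of the control array of its own line.

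Embryonic stem cells cycle fast and spend much of the cycle in S phase, so genes of the cycle are expressed highly in them. Before S phase, Cdc6 and Cdt1 load the MCM helicase, a ring of Mcm2 to Mcm7, onto origins, and Mcm10 and the GINS subunits Gins1 and Gins2 then help turn it into an active helicase. Pcna is the sliding clamp of the replicative polymerases, Rrm1 and Rrm2 form the ribonucleotide reductase that makes deoxyribonucleotides, and Tyms makes thymidylate. Mitosis is driven by the kinases Cdk1, Plk1, Aurka and Aurkb and by spindle motors, and the spindle checkpoint holds back the Cdc20-bound ubiquitin ligase until chromosomes are attached. In textbook accounts, E2F factors act through E2F sites in promoters of replication genes, while the DREAM complex, Mybl2 and Foxm1 act on mitotic genes through the cell cycle genes homology region (CHR), often with CCAAT boxes beside it.

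The depletion and the cell type were checked first. In J1 cells the brightest probe set of Tet1 was 10.85 on the control array and 8.31 after depletion, 17.2% of the control signal. On the E14 scramble, shRNA3387 and shRNA2863 arrays it read 10.95, 9.24 and 10.06, so that 30.6% and 54.0% were left. All 10 stem cell markers were above the filter level on every array, with summed linear signals between 21569 (J1 Tet1 siRNA) and 29077 (E14 scramble). The 12 fibroblast markers, of which 11 are on the array and 8 passed the filter, had summed linear signals of 291 and 319 in J1 control and Tet1 siRNA cells and between 211 and 246 in E14 cells. Dcn, Postn and Pdgfra were under the filter level on all 5 arrays. Of the 8 that passed, 3 were lower and 5 higher on the E14 scramble array than on the J1 control array. Their median difference was 0.03. Col1a2 was higher in the line grown on feeders. It read 6.24 and 5.95 in J1 control and Tet1 siRNA cells and between 3.59 and 3.62 in E14 cells. Col5a1 read 6.56 and 7.20 in J1 and between 6.30 and 6.57 in E14. In such bulk RNA, fewer cells expressing a gene and less of its RNA per cell cannot be told apart.

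Promoters of these genes were searched for the motifs of those accounts, and a few are shown for genes that the results below describe. Windows from 250 bases before to 50 bases after the start site (RefSeq, GRCm38.p6) were given for 29 of the 36 genes, 12 replication genes, 16 mitotic genes and Mybl2. No window was used for Mcm4, Gins1, Gins2, Aurkb, Kif20a, Tpx2 and Foxm1. An E2F match was any of TTTGGCGC or TTTGCCGC or TTTCGCGC or TTTCCCGC on either strand, a CHR match was TTTGAA on either strand, and a CCAAT box was CCAAT on either strand. E2F matches can overlap each other, and where the text counts genes, a gene counts once.

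An E2F match was present in 6 of 12 replication genes (50%: Mcm3, Mcm5, Mcm6, Mcm7, Cdc6 and Cdt1), in 1 of 16 mitotic genes (Cdk1) and in 704 of 27025 genes with a window (2.6%). A CHR match was present in 12 of 16 mitotic genes (75.0%), in 1 of 12 replication genes (Mcm2) and in 20.2% of all genes with a window. A CCAAT box was found in 9 of 12 replication genes, 14 of 16 mitotic genes and 41.1% of all genes. Among the other replication genes of a second list, 11 of 37 had an E2F match and 6 a CHR match, and among other mitosis genes 27 of 42 had a CHR match and 5 an E2F match. A match is a string of letters and not a shown binding site.

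**Figure D1:**
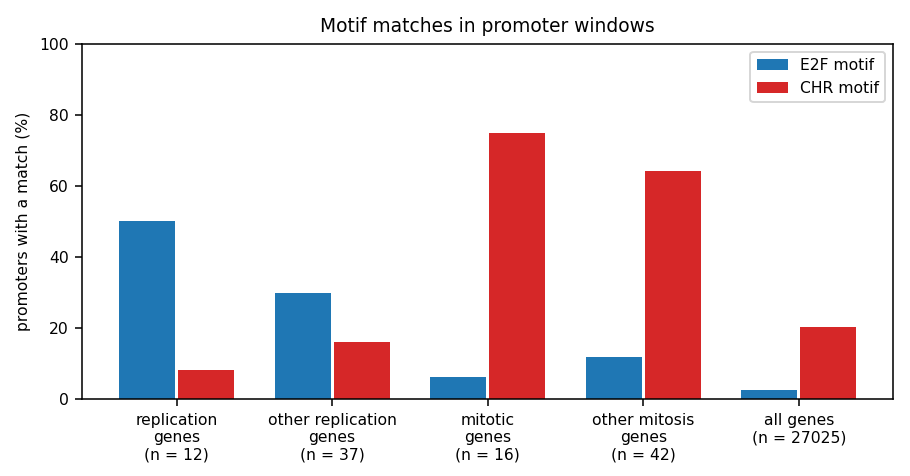
Share of promoter windows (vertical axis, percent) that hold an E2F match (blue) or a CHR match (red), for replication genes, mitotic genes, 2 lists of other genes of the same processes, and all 27025 genes with a window. E2F matches reach 50% in replication genes and CHR matches 75.0% in mitotic genes, against 2.6% and 20.2% of all genes.

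The windows of 3 replication genes follow, 5′ to 3′ on the gene's own strand in GRCm38.p6, with E2F, CHR and CCAAT matches of either strand in capitals. Mcm3 had the largest difference in J1 cells, Mcm6 holds 3 E2F matches, and Cdc6 differed most between the lines. Counted from the start site, the E2F matches of Mcm3 begin at 20 and 39, those of Mcm6 at -110, -106 and -47 with the first pair overlapping, and that of Cdc6 at -138.
Mcm3 promoter (chr1:20820263-20820562, minus strand): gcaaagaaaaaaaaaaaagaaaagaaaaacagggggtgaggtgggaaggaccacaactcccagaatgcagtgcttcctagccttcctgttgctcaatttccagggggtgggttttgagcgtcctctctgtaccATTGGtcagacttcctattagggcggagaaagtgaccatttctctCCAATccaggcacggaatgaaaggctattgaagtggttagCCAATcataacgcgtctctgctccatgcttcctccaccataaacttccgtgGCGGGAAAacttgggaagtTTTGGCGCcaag
Mcm6 promoter (chr1:128359656-128359955, minus strand): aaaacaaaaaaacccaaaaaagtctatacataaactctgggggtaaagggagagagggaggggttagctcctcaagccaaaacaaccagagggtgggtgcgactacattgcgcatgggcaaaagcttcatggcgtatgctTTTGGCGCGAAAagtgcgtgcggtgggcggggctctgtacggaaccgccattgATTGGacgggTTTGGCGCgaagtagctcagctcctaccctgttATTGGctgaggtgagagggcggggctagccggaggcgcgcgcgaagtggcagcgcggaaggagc
Cdc6 promoter (chr11:98907901-98908200, plus strand): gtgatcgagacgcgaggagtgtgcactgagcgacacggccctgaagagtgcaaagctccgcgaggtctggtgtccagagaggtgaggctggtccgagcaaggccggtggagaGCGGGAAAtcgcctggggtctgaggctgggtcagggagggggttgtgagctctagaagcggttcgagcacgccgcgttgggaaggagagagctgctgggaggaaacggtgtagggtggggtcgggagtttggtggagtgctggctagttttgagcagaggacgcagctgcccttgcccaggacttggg

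The windows of 3 mitotic genes are marked the same way. Top2a and Kif11 were among the genes with the smallest p-values, and Cdk1 holds both motifs. The CHR match nearest to the start site begins at -23 in Top2a, -19 in Kif11 and -15 in Cdk1, and the E2F match of Cdk1 at -131.
Top2a promoter (chr11:99024140-99024439, minus strand): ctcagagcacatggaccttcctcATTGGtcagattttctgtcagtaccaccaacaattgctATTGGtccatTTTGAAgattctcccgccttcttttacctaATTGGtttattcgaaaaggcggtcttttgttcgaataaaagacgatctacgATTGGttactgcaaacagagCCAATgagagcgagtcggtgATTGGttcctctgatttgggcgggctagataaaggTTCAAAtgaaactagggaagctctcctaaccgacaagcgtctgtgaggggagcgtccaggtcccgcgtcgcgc
Kif11 promoter (chr19:37376132-37376431, plus strand): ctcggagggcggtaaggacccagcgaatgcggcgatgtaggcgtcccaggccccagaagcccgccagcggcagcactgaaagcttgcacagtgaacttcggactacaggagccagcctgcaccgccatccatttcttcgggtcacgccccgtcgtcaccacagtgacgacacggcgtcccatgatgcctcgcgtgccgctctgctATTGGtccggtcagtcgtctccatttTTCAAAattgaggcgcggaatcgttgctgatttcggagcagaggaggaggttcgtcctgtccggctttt
Cdk1 promoter (chr10:69352863-69353162, minus strand): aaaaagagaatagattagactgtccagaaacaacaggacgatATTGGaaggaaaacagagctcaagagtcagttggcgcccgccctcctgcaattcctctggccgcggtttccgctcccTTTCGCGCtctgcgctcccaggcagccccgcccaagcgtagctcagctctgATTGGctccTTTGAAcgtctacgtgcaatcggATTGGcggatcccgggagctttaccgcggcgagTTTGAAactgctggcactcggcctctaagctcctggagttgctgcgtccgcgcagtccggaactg

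Replication and mitotic genes were expressed highly on every array, and few differed much between depleted and control cells. The mean log2 value over the 5 arrays ran from 8.36 (Gins2) to 12.35 (Pcna) for 14 of the 15 replication genes, and from 7.65 (Aurkb) to 11.70 (Cdc20) for the mitotic genes. Tyms, at 4.59, stood apart from them. Its 4 probe sets with only its own symbol read between 2.38 and 4.76, while a probe set listed for both Tyms and its pseudogene Tyms-ps read 9.18 and 9.17 in J1 control and Tet1 siRNA cells and 9.17, 9.10 and 9.26 in E14 scramble, shRNA3387 and shRNA2863 cells. Levels of different probe sets also depend on their probes, so their order is not an order of transcript amounts.

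**Figure D2:**
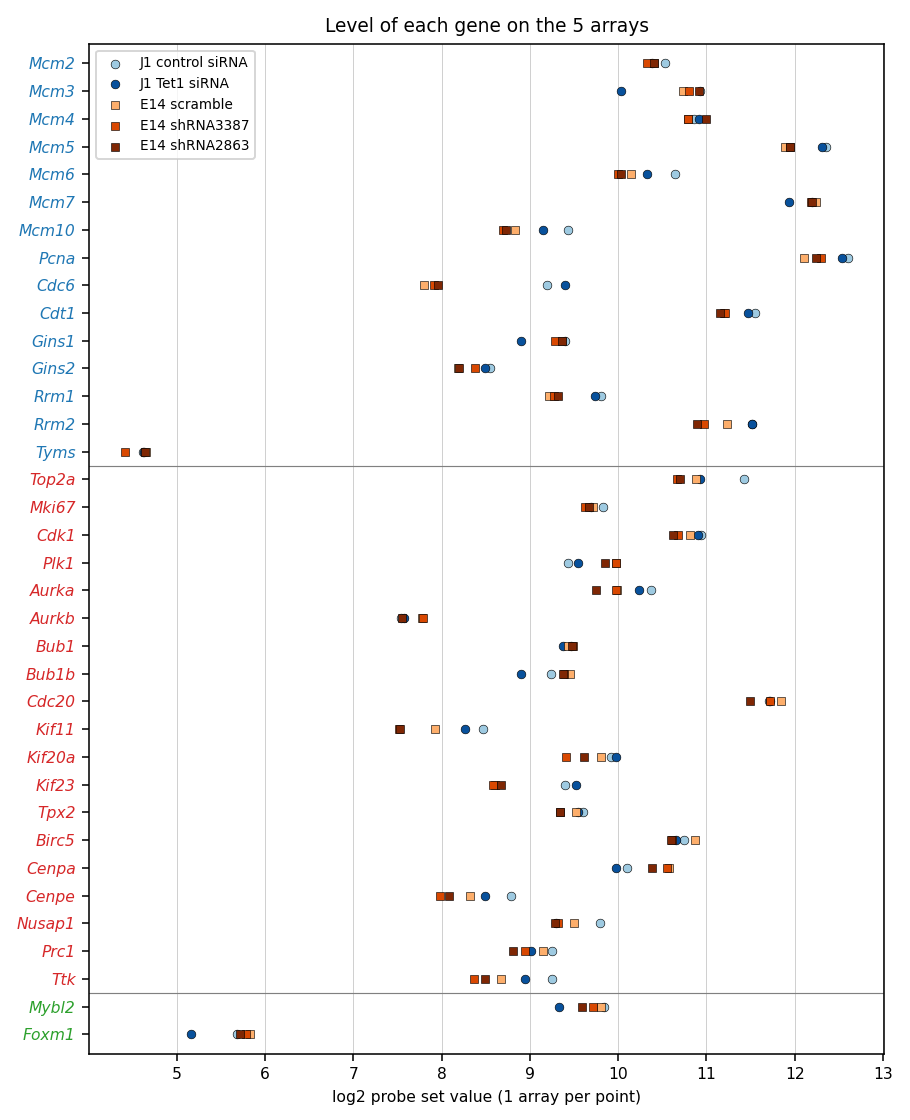
Log2 value (horizontal axis) of each gene on the 5 arrays, 1 point per array, with replication genes (blue names), mitotic genes (red names) and both factors (green names). The points of Mcm3 spread within J1, from 10.93 to 10.03, and those of Cdc6 between the lines, as it reads 9.19 and 9.40 in J1 cells and 7.80 to 7.96 in E14 cells.

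In J1 cells with Tet1 siRNA, replication genes had a median difference of -0.07 and 11 of 15 were lower than in control siRNA cells. Mcm3 was the exception in size, at 1.87-fold lower. It was the 1 member of 36 at least 1.5-fold lower, a size reached by 6.09% of the 13619 kept genes, and 0 of 36 were at least 1.5-fold higher, where 2.91% of kept genes were. The median over all kept genes was -0.01, and 50.4% of them were lower. When a gene was the median of its probe sets, 8 of 15 replication genes were lower. Genes within 0.5 log2 units of each member's level had a typical median of -0.07. Taken gene by gene, the median distance of replication genes from genes of like level was -0.04.

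Among the loaders and the helicase ring, Mcm3 read 10.93 and 10.03 in J1 control and Tet1 siRNA cells, and 10.73, 10.80 and 10.91 with scramble, shRNA3387 and shRNA2863. The J1 Tet1 siRNA array was thus the low one and the other 4 lay within 0.20 of each other. The middle 95% of genes of like level ran from -0.69 to 0.38 in J1, and Mcm3 at -0.90 was the 1 member outside its own such range in any depletion. The brightest 3 probe sets of Mcm3 differed by -0.90, -0.85 and -0.90 in J1, whereas the fourth, at a mean of 8.32, differed by 0.09. The limma difference between the lines' effects was 1.02 ± 0.12 (SE, from the hairpin pair) for Mcm3, with an unadjusted p of 0.0108 and a Benjamini-Hochberg adjusted p of 0.332.

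The other ring subunits differed less from their control in J1. Mcm6 read 10.64 and 10.33 in J1 control and Tet1 siRNA cells and 10.15, 10.00 and 10.03 in E14 scramble, shRNA3387 and shRNA2863 cells, lower than its control in each depletion by 0.12 to 0.31. Its second probe set, with a mean of 9.95 against 10.23, differed the other way, by 0.01, 0.25 and 0.09 in J1, shRNA3387 and shRNA2863. Mcm7 differed by -0.27 in J1, Mcm2 by -0.15, Mcm5 by -0.04 and Mcm4 by 0.06. Their second probe sets differed by -0.16, 0.04, -0.24 and 0.30 in J1. That of Mcm4, at a mean of 10.35, also differed by 0.27 with shRNA3387 and 0.31 with shRNA2863. The loader Cdc6 read 9.19 and 9.40 in J1 control and Tet1 siRNA cells and 7.80, 7.91 and 7.96 on the E14 arrays, so each depleted array was slightly above its control. Its partner Cdt1 differed by -0.08 in J1, 0.01 with shRNA3387 and -0.05 with shRNA2863.

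Of the firing factors, the GINS subunit Gins1 read 9.40 and 8.90 in J1 control and Tet1 siRNA cells, and 9.36, 9.28 and 9.36 in E14 scramble, shRNA3387 and shRNA2863 cells. Only the J1 Tet1 siRNA array was low among these 5. Its partner Gins2 differed by -0.06 in J1. Mcm10, which helps start unwinding, read 9.43 and 9.15 in J1 cells and 8.83, 8.70 and 8.73 in E14 cells in the same order. The clamp Pcna read 12.60 and 12.53 in J1 cells and 12.10, 12.30 and 12.24 in E14 cells, lower with Tet1 siRNA and higher with each hairpin.

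Mitotic genes in J1 cells had a median difference of -0.12, beside -0.08 for genes of like level. Taken gene by gene, the median distance from genes of like level was -0.05. Of the 19 genes, 14 were lower, beside 50.4% of kept genes, and 0 were past 1.5-fold. The median over all kept genes was -0.01, above that of genes of like level, whose share of lower genes was not counted. When a gene was the median of its probe sets, 11 of 18 were lower. The topoisomerase Top2a, which untangles sister chromatids, read 11.43 and 10.93 in J1 control and Tet1 siRNA cells, and 10.88, 10.67 and 10.70 on the scramble, shRNA3387 and shRNA2863 arrays. Nusap1, a spindle microtubule protein, read 9.79 and 9.30 in J1 and 9.50, 9.32 and 9.29 in E14 in that order. By these probe sets the depleted arrays of both genes lay below their own control, and the J1 control array was the highest of the 5. The second probe set of Top2a differed by -0.60, 0.14 and 0.03 in J1, shRNA3387 and shRNA2863, and that of Nusap1, at a mean of 3.63, by 0.00, -0.43 and -0.35. The checkpoint kinase-like protein Bub1b read 9.24 and 8.90 in J1 and 9.45, 9.39 and 9.37 in E14, and its second probe set differed by -0.45 in J1. The largest positive J1 differences of mitotic genes were 0.12 for the midzone motor Kif23 and 0.11 for Plk1.

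The factors Mybl2 (B-Myb) and Foxm1 lay lower in J1 by about the same amount. Mybl2 read 9.84 and 9.33 in J1 control and Tet1 siRNA cells and 9.80, 9.71 and 9.59 in E14 scramble, shRNA3387 and shRNA2863 cells. Foxm1 read 5.68 and 5.16 in J1 and 5.83, 5.79 and 5.72 in E14 in that order. For each factor the J1 Tet1 siRNA array was the lowest of the 5. The second probe set of Mybl2 differed by -1.05 in J1, -0.99 with shRNA3387 and -0.57 with shRNA2863, and the second of Foxm1 by -0.54, -0.37 and -0.31, while the third of Foxm1 differed by 0.04, -0.05 and -0.01. In limma over both lines the difference was -0.30 ± 0.12 (SE) for Mybl2 and -0.27 ± 0.14 (SE) for Foxm1, each with an adjusted p of 0.718.

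Stem cell markers moved with the J1 comparison, with all 10 lower (median -0.51) and a summed linear signal of 27295 in control and 21569 in Tet1 siRNA cells. Of 9 trophectoderm markers, 6 passed the filter and 5 of those were higher in J1 (median 0.49). Their summed signal was 7627 in control and 11294 in Tet1 siRNA cells, most of it from the keratins Krt8 and Krt18. Cdx2, Elf5 and Gata3 were under the filter level on all 5 arrays. Whether these shifts have a part in the differences of Mcm3, Gins1, Mybl2 or Foxm1 was not tested.

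**Figure D3:**
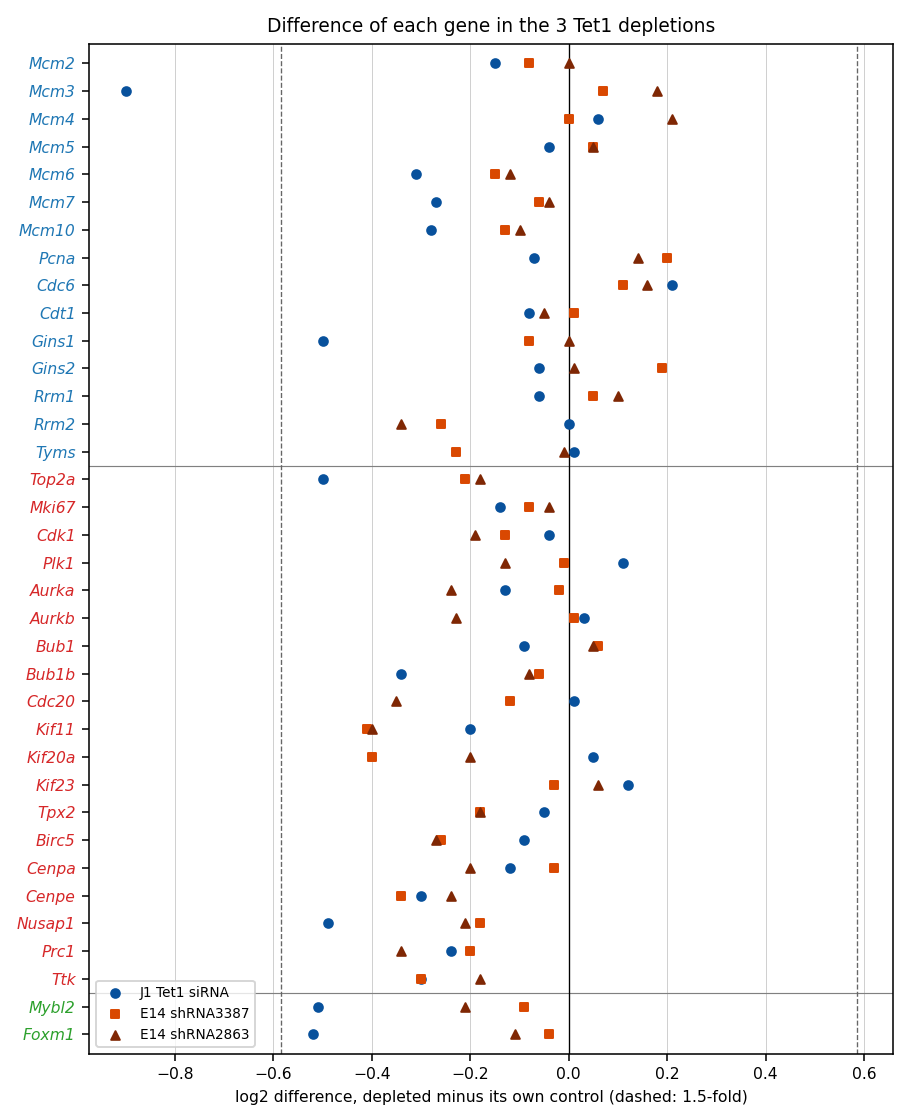
Log2 difference (horizontal axis) of each gene in J1 Tet1 siRNA (circles), E14 shRNA3387 (squares) and E14 shRNA2863 (triangles), each from the control of its own line, with dashed lines at 1.5-fold. Mcm3 in J1, at -0.90, is the 1 point past a dashed line, and most squares and triangles of mitotic genes lie left of 0.

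In E14 cells with Tet1 hairpins, replication genes centred on 0 and mitotic genes lay slightly lower. Replication genes had a median of 0.00 with shRNA3387 (7 higher, 7 lower, 1 equal) and 0.00 with shRNA2863 (7 higher, 6 lower, 2 equal), beside 0.02 and 0.025 for genes of like level. Mitotic genes had a median of -0.13 with shRNA3387 and -0.20 with shRNA2863, with 17 of 19 lower in each comparison, beside 0.02 and 0.03 for genes of like level. Over all kept genes the medians were -0.02 and -0.01, and 57.0% and 55.1% were lower. The trophectoderm markers had medians of -0.065 and 0.67 with shRNA3387 and shRNA2863. Their summed signals were 2343, 1793 and 3674 on the scramble, shRNA3387 and shRNA2863 arrays, again mostly from Krt8 and Krt18. Krt8 and Krt18 differed by -0.71 and -0.59 with shRNA3387, where 3 of the 6 markers were higher and 3 lower. The part of these markers in the mitotic medians was not tested. After median centring of the arrays, 12 of 19 mitotic genes were lower with shRNA3387 (median -0.07) and 17 with shRNA2863 (median -0.17). The medians over all kept genes were then 0.04 and 0.02, as centring shifts every gene of an array alike.

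No member reached 1.5-fold with either hairpin. That size was reached by 5.39% of kept genes higher and 3.36% lower with shRNA3387, and by 3.63% higher and 3.26% lower with shRNA2863. For shRNA3387 that is 734 higher and 457 lower, which turned to 535 and 603 after quantile normalization and to 927 and 345 after median centring. Because both hairpins share the scramble array, a low or high reading there shifts both comparisons alike.

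**Figure D4:**
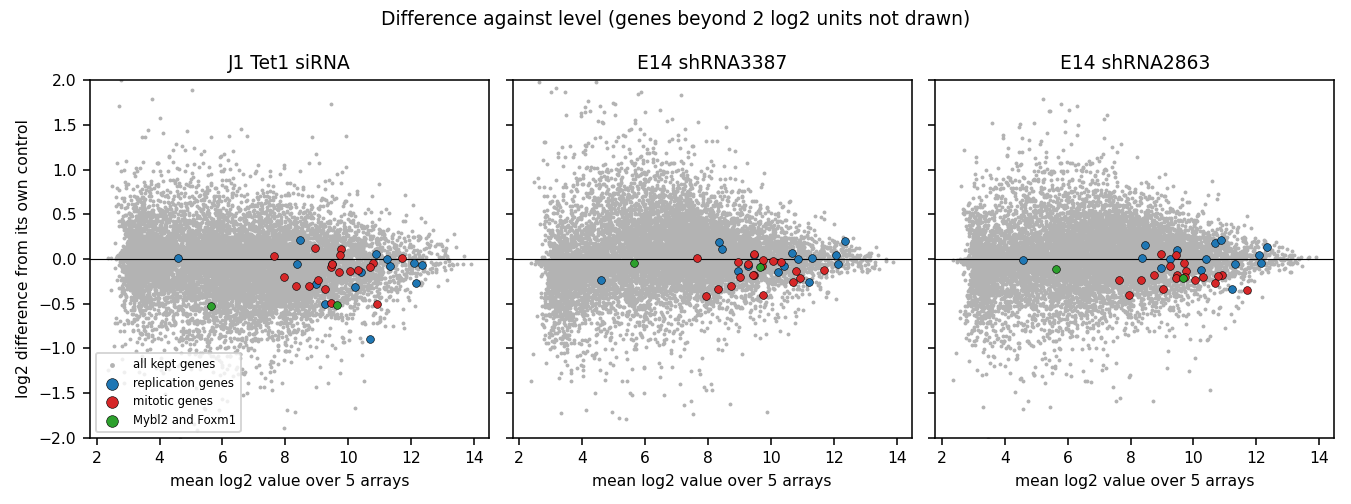
Log2 difference from the own control (vertical axis) against mean log2 value over the 5 arrays (horizontal axis) for J1 Tet1 siRNA, E14 shRNA3387 and E14 shRNA2863, with all kept genes in grey, replication genes in blue, mitotic genes in red and both factors in green. Most members sit at the bright end of the arrays, and in the E14 panels most red points lie below 0 while blue points lie on both sides.

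Among the spindle motors, Kif11 (Eg5), which pushes spindle poles apart, read 8.47 and 8.27 in J1 control and Tet1 siRNA cells and 7.93, 7.52 and 7.53 in E14 scramble, shRNA3387 and shRNA2863 cells. Its second probe set differed by -0.10, -0.19 and -0.42 in J1, shRNA3387 and shRNA2863. The third read 7.20 and 8.02 in J1 and between 2.76 and 3.48 in E14, so the probe sets of Kif11 did not agree in J1. Kif20a, a motor of cytokinesis, read 9.92 and 9.97 in J1 and 9.81, 9.41 and 9.61 in E14, with both hairpin arrays below the other 3. The kinetochore motor Cenpe read 8.79 and 8.49 in J1 and 8.32, 7.98 and 8.08 in E14, below its control in each depletion. A second Cenpe probe set, with a mean of 6.98, differed by 1.05 in J1, 0.11 with shRNA3387 and -0.19 with shRNA2863.

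Among the midzone and checkpoint genes, Prc1, which bundles midzone microtubules, read 9.25 and 9.01 in J1 control and Tet1 siRNA cells and 9.15, 8.95 and 8.81 in E14 scramble, shRNA3387 and shRNA2863 cells. The checkpoint kinase Ttk (Mps1) read 9.25 and 8.95 in J1 and 8.67, 8.37 and 8.49 in E14 in that order. By these probe sets, each depleted array of both genes lay below its own control by 0.18 to 0.34. The second probe set of Prc1, at a mean of 8.51, differed by -0.08, 0.00 and -0.27 in J1, shRNA3387 and shRNA2863. The second of Ttk, at a mean of 3.48, differed by -0.01, 0.67 and 0.04. Birc5 (survivin), a subunit of the chromosomal passenger complex, differed by -0.09, -0.26 and -0.27 in J1, shRNA3387 and shRNA2863, and its kinase partner Aurkb by 0.03, 0.01 and -0.23. The spindle assembly factor Tpx2 differed by -0.05, -0.18 and -0.18. Its second probe set, at a mean of 7.78, differed by -0.55, -0.10 and -0.10.

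The remaining mitotic genes each differed by at most 0.35 from their controls. Cdc20 differed by 0.01, -0.12 and -0.35 in J1, shRNA3387 and shRNA2863, Aurka by -0.13, -0.02 and -0.24, and the centromeric histone Cenpa by -0.12, -0.03 and -0.20. Cdk1 differed by -0.04, -0.13 and -0.19, Plk1 by 0.11, -0.01 and -0.13, and the proliferation antigen gene Mki67 by -0.14, -0.08 and -0.04. The checkpoint kinase Bub1 (-0.09, 0.06 and 0.05) and Kif23 (0.12, -0.03 and 0.06) were the mitotic genes above the scramble array with shRNA2863.

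Among nucleotide enzymes, Rrm2, the small subunit of ribonucleotide reductase, read 11.51 and 11.51 in J1 control and Tet1 siRNA cells and 11.23, 10.97 and 10.89 in E14 scramble, shRNA3387 and shRNA2863 cells. Both hairpin arrays lay below the other 3, although the second probe set of Rrm2 differed by 0.02 and -0.07 with the hairpins and the third by 0.01 and 0.09. The large subunit Rrm1 differed by -0.06, 0.05 and 0.10 in J1, shRNA3387 and shRNA2863, and Tyms by 0.01, -0.23 and -0.01.

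Between the hairpins, 0 of 36 members differed by 1.5-fold, where 3.53% of kept genes were that much higher and 2.11% that much lower with shRNA3387 than with shRNA2863. The hairpins left 30.6% and 54.0% of the Tet1 signal, and the mitotic medians beside them were -0.13 and -0.20. The largest differences of shRNA3387 minus shRNA2863 were 0.24 for Aurkb, 0.23 for Cdc20 and 0.22 for Aurka on the higher side, and -0.22 for Tyms, -0.21 for Mcm4 and -0.20 for Kif20a on the lower side.

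Each member was also tested with limma over all kept genes. In the fit over both lines, 0 of 36 members passed an adjusted p of 0.05, as 0% of the 13619 genes did (lowest adjusted p = 0.70). An unadjusted p under 0.05 was reached by 6 of 19 mitotic genes, all lower, and by 0 of 15 replication genes, where 4.01% of kept genes were lower and 2.86% higher at that level. The 6 were Top2a (-0.33 ± 0.09 SE), Kif11 (-0.32 ± 0.10), Nusap1 (-0.32 ± 0.10), Cenpe (-0.29 ± 0.09), Ttk (-0.27 ± 0.09) and Prc1 (-0.26 ± 0.09), with limma adjusted p-values of 0.706 for Top2a and 0.718 for the other 5.

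The count of 6 was not stable. It was 0 without shRNA3387 and 1 without shRNA2863. Without scramble the fit compares only the J1 arrays, and without a J1 array only the hairpins with scramble. Those fits are therefore no check of an effect over both lines. The count stayed 6 without the filter and without the mean-variance trend, and was 5 after quantile normalization. It was 2 after median centring, 4 with the 60th percentile filter and 0 without the line term. With genes as the median of their probe sets it was 1 of 18. The share of all tested genes lower at that p varied as well. It was 4.01% in the main fit, 2.95% without shRNA3387 and 2.3% without shRNA2863. It was 4.93% after quantile normalization, 3.41% after median centring and 3.85% with the median of probe sets. Without the filter it was 3.33%, with the 60th percentile filter 4.24%, without the trend 4.18% and without the line term 0.999%.

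In the E14 fit, 0 members passed, as 0% of all genes did. On simulated data this fit called 0 of 100 genes shifted 2-fold and 0 of 100 shifted 4-fold. Its 0 therefore cannot tell whether members differed. An unadjusted p under 0.05 was reached by Rrm2 (-0.30 ± 0.06 SE) among replication genes and by Kif11 (-0.41 ± 0.08), Birc5 (-0.27 ± 0.05) and Top2a (-0.20 ± 0.05) among mitotic genes, all lower, against 6.57% of kept genes lower and 4.43% higher. Rrm2 no longer reached that p after median centring and without the mean-variance trend, and with genes as the median of their probe sets Mcm10 reached it in its place. The 3 mitotic genes became 2 with the 60th percentile filter or without the mean-variance trend, and 1 of 18 when a gene was the median of its probe sets. The share of all tested genes lower at that p was 4.45%, 6.37% and 6.55% under these settings in turn. The adjusted p-values of the 4 genes in limma ran from 0.402 (Birc5) to 0.450 (Top2a). For the difference between the lines' effects 0% of genes passed, and Mcm3, Mcm7 (0.22 ± 0.05 SE) and Top2a (0.30 ± 0.07) had an unadjusted p under 0.05, all with the E14 effect above the J1 effect, where 7.08% of kept genes did so that way and 6.78% the other way. After quantile normalization or without the trend, 1 replication gene and 0 mitotic genes were left in that direction, and after median centring 3 and 1. With genes as the median of their probe sets 1 replication gene and 1 mitotic gene were left, and Mcm10 reached that p in the opposite direction. The p-values rest on 2 residual degrees of freedom over both lines and 1 in the other fit, and measure only the spread between these arrays. In that other fit the different hairpins stand in as replicates of each other. The spread of the lone scramble array is not measured there, and a high reading on it would make both hairpin arrays look lower.

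The control arrays of the lines differed from each other as well, among the members more in replication than in mitotic genes by median. Replication genes had a median of -0.35 in E14 scramble minus J1 control siRNA, with 13 of 15 lower in E14, beside -0.085 for genes of like level, and mitotic genes had a median of -0.11, with 13 of 19 lower, beside -0.07. Over all kept genes the median was 0.02, and 42.9% were lower in E14. The trophectoderm markers had a median of -0.72 in the same comparison, and their part in it was not tested. The licensing factor Cdc6 was 2.62-fold lower in E14, and Mcm10 1.52-fold and Kif23 1.73-fold lower. By their brightest probe sets, these were the 3 members of 36 at least 1.5-fold lower, a size that 13.4% of kept genes reached. By the same probe sets 0 members were at least 1.5-fold higher, where 9.69% of kept genes were. Plk1 (0.55) and Cenpa (0.48) had the largest positive differences.

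The split over all kept genes, 1320 higher and 1822 lower, turned to 1746 and 1373 after quantile normalization, under which the replication median was -0.31. When a gene was the median of its probe sets, the replication median was -0.155 and 9 of 15 were lower. The second probe set of Kif23 differed by -1.51 between the lines and that of Mcm10 by 0.59. Each is 1 array against 1 array, and line, feeders and transfection or infection cannot be told apart.

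The other probe sets of the members were not always of the same sign. Of the 43 other probe sets above the filter, in 28 genes, 20 had the sign of the brightest in J1, 24 with shRNA3387 and 29 with shRNA2863. Among members with 2 or more bright probe sets, some had a second one with a like or larger J1 difference. These included Mcm3 (-0.85), Mybl2 (-1.05), Top2a (-0.60), Tpx2 (-0.55), Bub1b (-0.45) and, on the higher side, Mcm4 (0.30). Second probe sets of Rrm1 (0.65) and Cenpe (1.05) and the third of Kif11 (0.82) were higher in J1, unlike their brightest. These probe sets were chosen for description after their values were seen.

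**Figure D5:**
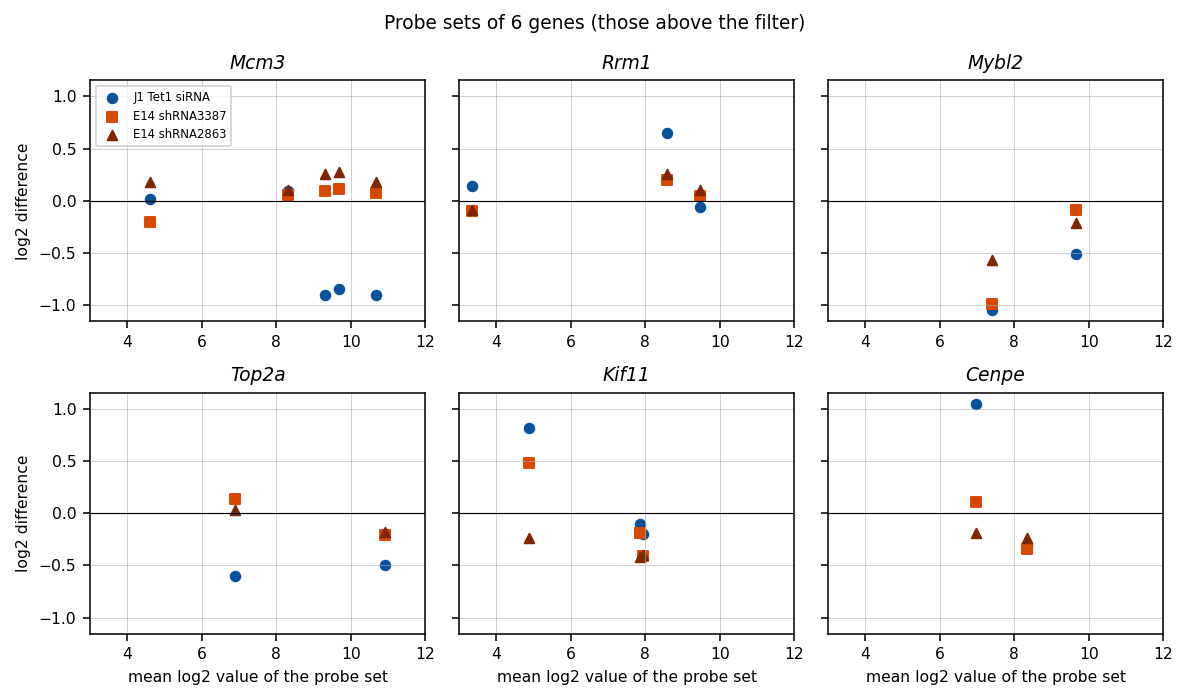
Log2 difference (vertical axis) of each probe set above the filter for 6 genes, against the mean log2 value of that probe set (horizontal axis), in J1 Tet1 siRNA (circles), E14 shRNA3387 (squares) and E14 shRNA2863 (triangles). The 3 brightest Mcm3 probe sets lie between -0.90 and -0.85 in J1 and above 0 with the hairpins, and a dimmer probe set of Kif11 and of Cenpe is higher in J1, at 0.82 and 1.05.

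Other genes of both processes, from lists of 44 and 46 genes, were described the same way. Of the other replication genes 42 passed the filter, with medians of -0.10, 0.055 and 0.04 in J1, shRNA3387 and shRNA2863, and of the other mitosis genes 45, with medians of -0.17, -0.08 and -0.09. In J1, 4 of 42 other replication genes were at least 1.5-fold lower, beside 6.09% of kept genes, namely the polymerase subunits Pole (-0.84) and Pola1 (-0.72), the fork protection factor Timeless (-0.67) and the origin recognition subunit Orc5 (-0.60), and so was 1 of 45 other mitosis genes, the centromere protein Cenpm (-0.59). With shRNA3387, 2 of 42 other replication genes were that much higher, Rfc3 (0.63) and Cdc7 (0.61), beside 5.39% of kept genes.

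By the mean of the 3 differences, the 3 genes farthest from 0 in each list were the following. The clamp loader subunit Rfc3 differed by 0.35, 0.63 and 0.31 in J1, shRNA3387 and shRNA2863, the origin-firing kinase Cdc7 by 0.13, 0.61 and 0.48, and the single-strand binding subunit Rpa2 by 0.29, 0.27 and 0.42. The ubiquitin-conjugating enzyme Ube2c, which works with the Cdc20-bound ligase, differed by -0.25, -0.48 and -0.52, the spindle protein Hmmr by -0.33, -0.34 and -0.38, and Ckap2 by -0.23, -0.54 and -0.16. In limma over both lines 0 of these 42 and 45 genes passed an adjusted p of 0.05. At an unadjusted p under 0.05 there were 2 higher and 1 lower among the other replication genes and 3 lower among the other mitosis genes (6.67%, beside 4.01% of kept genes). The other mitosis count was 2 without shRNA3387 and 1 without shRNA2863. The other replication genes had 1 lower and 0 higher without shRNA3387, and 0 lower and 1 higher without shRNA2863. Leaving out scramble or a J1 array leaves the comparison of 1 line, so those fits are no check over both lines. In the E14 fit 7 of 45 other mitosis genes were lower (15.6%, beside 6.57%), which was 3 of 43 with genes as the median of their probe sets. For the difference between the lines' effects 8 of 42 other replication genes were higher in E14 (19%, beside 7.08%), with 6 to 9 under the alternatives run.

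The regulators of both groups, 17 E2F, pocket protein and DREAM genes, all passed the filter and had medians of -0.06, 0.05 and 0.09. E2f2, an activating E2F, read 4.56 and 4.05 in J1 control and Tet1 siRNA cells and 4.32, 3.82 and 3.74 in E14 scramble, shRNA3387 and shRNA2863 cells, a limma difference of -0.53 ± 0.07 (SE, unadjusted p = 0.00178, adjusted p = 0.70). E2f5 differed by 0.15, 0.76 and 0.14, and the DREAM subunit Lin37 by 0.01, -0.69 and -0.36. Within the mitotic genes, the 12 with a CHR match had medians of -0.135, -0.10 and -0.185 and the 4 without one -0.195, -0.22 and -0.225 in J1, shRNA3387 and shRNA2863. Within the replication genes, the 6 with an E2F match had medians of -0.175, 0.03 and 0.005 and the 6 without one -0.065, -0.105 and -0.005.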

How the data were processed

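RNA of 5 groups was labelled with biotin and hybridised to Affymetrix arrays, per the labels' protocols. The deposited values are on a log2 scale, as their range shows; how the authors summarised and normalized them is not given in the sources used here. They were used as deposited. Depth is set by the number of arrays, 1 per group, and signal near the filter level is hard to tell from background.

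Gene names came from GEO's platform annotation, using probe sets of 1 symbol, and the brightest on average stood for its gene. A gene was kept if, on any array, it exceeded the 40th percentile over probe sets other than controls. Pairs of arrays got no p-value, and 1.5-fold was the size counted. Genes of like level are all kept genes with a mean within 0.5 log2 units of a member. limma 3.58.1 in R 4.3.3 (mean-variance trend, two-sided, Benjamini-Hochberg over 13619 genes) gave the Tet1 effect over both lines with a line term, the E14 effect, and the difference between lines from a fit of 4 means, where a lone array takes its spread from the hairpin pair. On simulated data of 13619 genes, the fit over both lines called 41 of 100 genes shifted 2-fold and 71 of 100 shifted 4-fold, and the E14 fit called 0 of each.

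The members and lists were chosen with earlier results of these data known. All members are named. Values on every array are given for the factors, in each group the 4 largest J1 differences, the 4 largest mean hairpin differences and the 2 whose smallest difference of one sign over the depletions was largest, and any member past 1.5-fold. Up to 3 genes of each further list are named by mean difference; other genes of those lists that are named past 1.5-fold, and single markers, were chosen after their values were seen. Promoter windows came from RefSeq (GRCm38.p6). Alternatives were quantile normalization, median centring, no filter, the 60th percentile, the median over probe sets, no trend, no line term, 2-fold and leaving out each array.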

Additional observations from a re-analysis of the deposited data

How the results depend on the processing

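No group has a replicate, so every difference between 2 arrays lacks a replicate check, and a sign could be read only against other probe sets. limma called 0 genes in all 3 fits under other normalizations, filters, probe set rules and without the trend. The fit over both lines also called 0 without the line term and without either hairpin array (not run for the other fits). Leaving out any other array leaves that fit with the Tet1 effect of 1 line only. A median was taken to have moved when it shifted by more than the SD of the 3 depletions' medians. After median centring, the replication median with shRNA3387 was 0.06 and the mitotic median with shRNA3387 was -0.07. Centring shifts every gene of an array alike, and the median over all kept genes with shRNA3387 went from -0.02 to 0.04. The mitotic median in J1 was -0.0675 with the median over probe sets. At 2-fold, 0 replication genes were lower in J1 in place of 1. With the median over probe sets, 1 replication gene was at least 1.5-fold higher in J1, 1 was at least 1.5-fold lower with shRNA3387, and 1 mitotic gene was at least 1.5-fold lower in J1, in place of 0 each. The other medians of the 3 depletions, and the other counts past 1.5-fold in them, stayed within that tolerance under the settings run; the medians between the control arrays and the counts at an unadjusted p did move, as the report gives. Over the members' single differences, 40 of 105 moved by more than 0.1 with the median over probe sets, 1 of 108 after quantile normalization, and 0 of 108 with median centring or another filter. For counts past 1.5-fold and single differences, all settings but 2-fold were chosen after seeing the data. The cause of the shifts under settings other than median centring was not tested. Over all kept genes in J1, 396 higher and 830 lower became 553 and 576 with the median over probe sets.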
